A study of Mus musculus with 12 samples.

Results

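Tenascin C and the TLR4 complex were followed as 8 genes in endothelial cells (ECs) sorted from mouse lungs during colonization by breast cancer cells. The genes encode the matrix ligand tenascin C (Tnc), the receptors TLR4 and TLR2 (Tlr4, Tlr2), the TLR4 co-receptors CD14 and MD-2 (Cd14, Ly96), the adaptor MYD88 (Myd88), and inducible nitric oxide synthase and tumour necrosis factor (Nos2, Tnf). They were taken by name from the 18193 genes read on the arrays, because the study asks how tenascin C acts on TLR4 of lung macrophages. Each gene was read from 1 probe set, the one of highest mean signal among those annotated to that gene alone. There were 4 groups of 3 arrays. The ECs of 3 groups came from NSG mice 1, 2 or 3 weeks after MDA-MB-231-LM2 cells were given intravenously, a human breast cancer line selected for growth in the lung. The healthy group came from the lungs of NSG mice without cancer cells. The mice were 6 to 8 weeks old in all groups, and NSG mice lack mature T, B and NK cells. The sort kept cells with CD31 and removed those with GFP, the label of the cancer cells, or with EpCAM, CD140a, CD140b, CD11b or CD45. The paper proposes that tenascin C from cancer cells acts through TLR4 of macrophages, which then stimulate ECs by nitric oxide and TNF. The sort was set to remove both cancer cells and macrophages, and the arrays carry mouse probe sets. The values therefore describe mouse transcripts in the sorted fraction, where markers of excluded cells also gave signal (below), and do not test that model. About 500 pg of RNA was amplified for each array, and values are log2 signals, 1 per probe set and array.

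Tenascin C is a large hexameric matrix glycoprotein that is scarce in most adult tissues and is deposited at sites of injury and around tumours. Its fibrinogen-like globe is a known activator of TLR4. TLR4 works with MD-2, which holds lipid ligands, and CD14, which hands them over, and it signals through MYD88 to NF-κB. In macrophages, this signal is known to switch on Nos2, whose enzyme makes nitric oxide, and Tnf.

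At week 3, Nos2 was 2.01-fold higher than in healthy lung and Tnc was 2.70-fold higher than at week 2, and both were past the threshold. Relative to healthy lung, Tnc was 1.88-fold higher and missed the threshold (adjusted p = 0.0748, limma). With 1 array left out, the Nos2 call always held, whereas the Tnc call held only without week 3 replicate 2. The receptors, co-receptors, adaptor and Tnf passed the test in none of the 6 comparisons made between groups. A gene was called at an adjusted p below 0.05 (limma, Benjamini–Hochberg adjustment over all probe sets). In week 3 against healthy lung, 1 of the 8 genes rose (Nos2) and 0 fell, where 2.38% of all genes rose and 2.63% fell. In week 3 against week 2, 1 rose (Tnc) and 0 fell, with backgrounds of 1.35% and 0.748%. In week 3 against week 1, 2 rose (Tnc and Nos2) and 0 fell, with backgrounds of 0.649% and 0.192%. In week 1 against healthy lung, 0 of 8 passed, with backgrounds of 0.011% for rises and 0.0385% for falls, and in week 2 against healthy lung 0 of 8 passed, with 0.104% and 0.137%. At an unadjusted p below 0.05, Tnc alone would pass in each of these (1 of 8, lower than in healthy lung). In week 2 against week 1, 0 of 8 passed, 0 of 8 had an unadjusted p below 0.05, and 0% of all genes rose and 0% fell. The median log2 fold change of the 8 genes was 0.22 in week 3 against healthy lung, where that of all genes was 0.03.

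The label of the sorted cells was checked on marker lists. Pecam1, the gene of CD31, averaged 13.49 ± 0.02 at week 3 and 13.45 ± 0.05 in healthy lung, and the 12 endothelial markers averaged 12.89 to 13.06 on the arrays. Of these markers, 0 of 12 passed in any comparison. At most 2.38% of all genes rose and 2.63% fell in a comparison, so that count is no result about the markers. Transcripts of excluded cells were also measured. Ptprc (CD45) averaged 9.24 ± 0.17 at week 3 and 8.84 ± 0.62 in healthy lung, and Pdgfra (CD140a) averaged 9.66 ± 0.47 at week 3 and 11.91 ± 0.09 in healthy lung. The alveolar marker Sftpc averaged 13.53 and the macrophage marker Lyz2 averaged 12.69 in healthy lung. The 11 alveolar epithelial markers averaged 10.85 to 11.04 on the healthy arrays and 9.97 to 10.26 at week 3. Epcam and Itgam (CD11b) were lower, with means of 7.47 and 7.19 in healthy lung. In such bulk samples, fewer cells of a type and less RNA per cell cannot be told apart. Microarray probes also give signal without transcript: 15 genes not expected in lung had mean log2 signals from 5.67 to 10.06, with a median of 7.62. All group means of Tnc, Tlr4, Tlr2, Cd14, Ly96, Nos2 and Tnf lie within that range, and only those of Myd88 (10.52 to 10.61) lie above it. For these genes other than Myd88, the height of a signal alone does not show that transcript was present, and an unchanged signal does not show a steady transcript. The means of Tnc at week 2 (7.54) and of Nos2 in healthy lung (7.74) are close to that median, so their folds are ratios of array signal and may understate the ratio of transcript. The difference between the 3′ and 5′ Gapdh probe sets, a measure of RNA integrity, was 0.37 to 0.69 in healthy lung, 0.42 to 0.53 at week 1, 0.30 to 0.41 at week 2 and 0.24 to 0.40 at week 3, and its part in the results was not tested.

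The sequence upstream of the Tnc start is shown because Tnc is the ligand of the axis and changed between weeks, and that of Tnf because Tnf, an NF-κB target in macrophages, did not pass the test. Windows of 250 bases before the annotated start were taken from RefSeq (GRCm38.p6), and 4 of the 8 genes (Tnc, Tlr2, Myd88, Tnf) had a window that was used. Capitals mark matches to TATAAA or to the κB core GGGNNNNNCC on either strand. The Tnc window is chr4:64047016-64047265 and the Tnf window is chr17:35202008-35202257, both on the minus strand and both written 5′ to 3′.
Tnc: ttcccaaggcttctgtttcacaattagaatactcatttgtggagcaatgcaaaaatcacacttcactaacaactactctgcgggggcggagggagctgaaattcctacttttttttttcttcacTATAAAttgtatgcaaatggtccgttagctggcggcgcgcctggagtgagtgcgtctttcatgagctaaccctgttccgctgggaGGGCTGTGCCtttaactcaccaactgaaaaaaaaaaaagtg
Tnf: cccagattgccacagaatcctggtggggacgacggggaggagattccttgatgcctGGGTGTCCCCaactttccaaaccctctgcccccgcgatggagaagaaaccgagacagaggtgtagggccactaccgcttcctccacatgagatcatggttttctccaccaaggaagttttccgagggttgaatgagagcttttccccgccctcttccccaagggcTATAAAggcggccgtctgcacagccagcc
The TATAAA match began 126 bases before the Tnc start and 29 bases before the Tnf start. The κB core match began 41 bases before the Tnc start and 194 bases before the Tnf start. The Tlr2 window held 2 overlapping κB core matches, and the Myd88 window held 0 of these and 2 TATAAA matches. Such a match was present in 45.8% of all 32851 windows and TATAAA in 12.4%, so these matches describe the letters and no more. The sequences TGANTCA (6.75% of all windows), TTCNNNGAA (7.02%) and GAAANNGAAA (2.98%) were searched on both strands too and had no match in the Tnc or Tnf window. The Myd88 window held 1 match to TTCNNNGAA, 46 bases before the start, and 1 to GAAANNGAAA, 40 bases before it, and the 2 overlap. A second annotated Tnc start lies downstream, and its window holds the same pair of matches.

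Tnc had log2 signals of 8.33, 8.13 and 7.71 in healthy lung, 7.18, 7.46 and 7.71 at week 1, 7.42, 7.79 and 7.40 at week 2, and 9.34, 8.62 and 8.95 at week 3. The 3 week 3 arrays were above all other arrays, and the arrays of weeks 1 and 2 lay at or below the healthy range apart from 1 array of week 2. The means were 8.06 ± 0.31 in healthy lung, 7.45 ± 0.26 at week 1, 7.54 ± 0.22 at week 2 and 8.97 ± 0.36 at week 3 (SD, n = 3 each). Tnc rose at week 3 relative to week 2 (log2 fold change 1.43, standard error [SE] 0.21, adjusted p = 0.0277) and relative to week 1 (1.52, SE 0.22, adjusted p = 0.036). Relative to healthy lung, the log2 fold change at week 3 was 0.91 (SE 0.23, 95% confidence interval 0.38 to 1.44, adjusted p = 0.0748), which missed the threshold although every week 3 array was higher, and which passed with all groups in one fit (0.0305) or with a filter on low values (0.0497). The log2 fold changes at week 1 (-0.61, SE 0.20, adjusted p = 0.393) and week 2 (-0.52, SE 0.19, adjusted p = 0.39) relative to healthy lung did not pass either. The Tnc call against week 2 was lost without any 1 of the week 2 arrays or without week 3 replicate 1 or 3 and was kept without week 3 replicate 2, with adjusted p between 0.0426 and 0.101, and the call against week 1 was lost without each of the 6 arrays in turn (0.0573 to 0.132). The other Tnc probe set, 1456344_at, gave log2 signals of 6.05 ± 0.38 in healthy lung, 5.90 ± 0.30 at week 2 and 6.09 ± 0.22 at week 3, and it passed in no comparison (log2 fold change 0.19 for week 3 against week 2, adjusted p = 0.673). By the mean of both probe sets, week 3 against week 2 gave 0.81 and did not pass (adjusted p = 0.0549), and week 3 against week 1 gave 0.88 and passed (0.0361). All Tnc calls therefore rest on probe set 1416342_at. Between weeks 3 and 2, 2 of 11 fibroblast markers, 1 of 11 mural markers and 2 of 10 pan-leukocyte markers rose as well. Between weeks 3 and 1, 1 of 11 fibroblast markers (Col1a1, 1.17), 1 of 10 pan-leukocyte markers (Laptm5, 1.44) and 1 of 9 neutrophil markers (S100a8, 1.26) rose. Their part in the Tnc values was not tested.

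**Figure D1:**
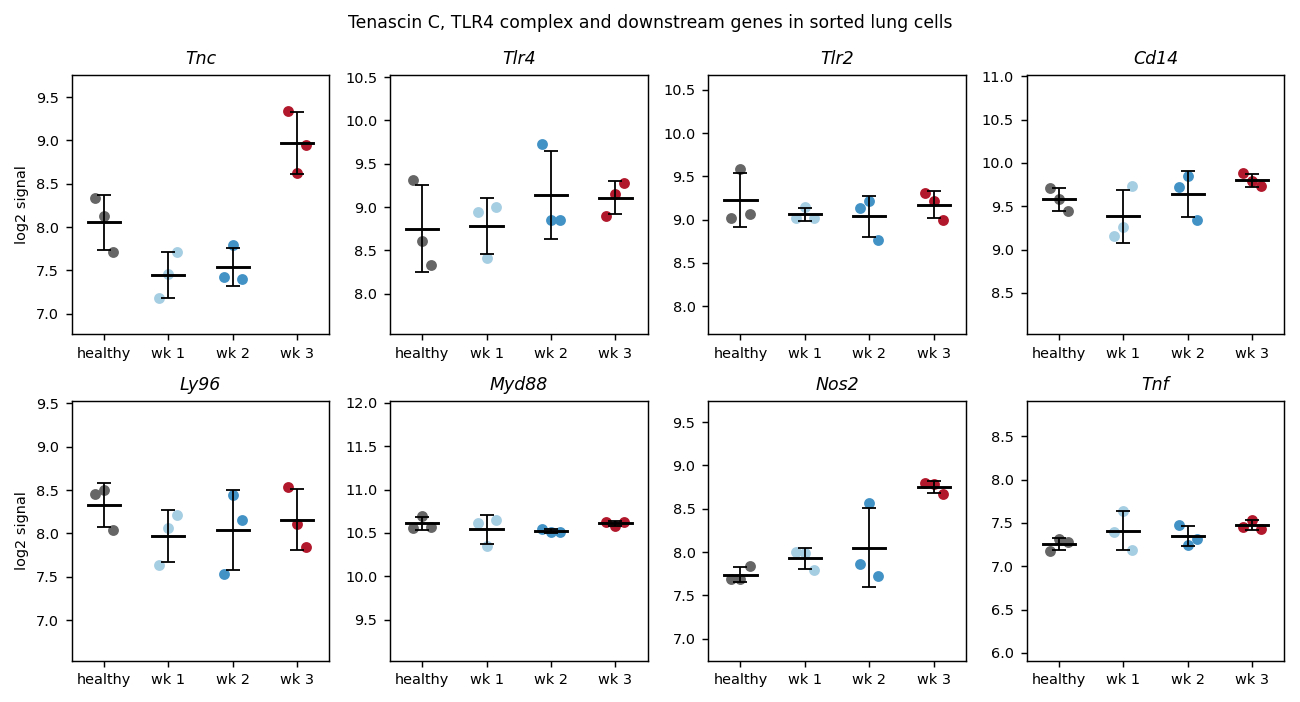
Log2 signal of the 8 genes (y axis, each panel spanning the same height) in healthy lung and at weeks 1, 2 and 3. Points are arrays, thick bars are group means and whiskers are SD (n = 3). Tnc and Nos2 have all 3 week 3 arrays above every other array, whereas in the other 6 panels the week 3 arrays lie among or next to those of other groups.

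Tnc is the founder of a family of 4 tenascins. At week 3 relative to healthy lung, Tnxb, the tenascin of loose connective tissue, fell, whereas Tnc was higher but missed the threshold (adjusted p = 0.0748). Both had lower means than healthy lung at week 1 (Tnc -0.61, Tnxb -0.58) and week 2 (-0.52 and -0.20), and none of these differences passed. Tnxb had log2 signals of 11.22, 11.35 and 11.00 at week 3 against 12.08, 11.94 and 12.10 in healthy lung, with no overlap. It fell by 0.85 (SE 0.13, adjusted p = 0.016). Tnr and Tnn, known mainly from brain and bone, did not pass the test, so that 1 of 4 family members fell and none rose at week 3 relative to healthy lung (median log2 fold change -0.08, against 0.03 over all genes). The Tnxb call was lost without healthy replicate 1 or 3 (adjusted p up to 0.0593). Over the same comparison 5 of 11 fibroblast markers fell, and their part in the Tnxb value was not tested.

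The integrins and other surface proteins that bind tenascin C formed a list of 13 genes, of which 1 rose and 2 fell at week 3 relative to healthy lung (median 0.00). Itgb3, the β3 chain that pairs with αv, had log2 signals of 9.92, 10.20 and 10.33 at week 3 and 8.92, 9.13 and 9.11 in healthy lung. All week 3 arrays were higher, and Itgb3 rose (log2 fold change 1.10, SE 0.14, adjusted p = 0.00948). It was also above week 2 (0.98, SE 0.13, adjusted p = 0.0224). Itga8, the α8 chain, which is best known from smooth muscle and mesenchymal cells, had 8.94, 8.87 and 8.76 at week 3 against 11.24, 11.04 and 11.15 in healthy lung. It fell by 2.29 (SE 0.11, adjusted p = 0.000471). Itgb6, an epithelial integrin chain, fell by 1.05 (SE 0.18, adjusted p = 0.0258). Neither Itgav nor Itgb1, the partner chains, passed the test. The Itgb3 and Itga8 calls against healthy lung held without each array in turn, the Itgb3 call against week 2 held only without week 3 replicate 1 (adjusted p up to 0.083), and Itgb6 was lost without healthy replicate 1 or any 1 week 3 array (up to 0.077).

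Tlr4, the receptor, had log2 signals of 9.31, 8.61 and 8.33 in healthy lung, 8.94, 8.41 and 9.0 at week 1, 9.73, 8.85 and 8.85 at week 2, and 8.90, 9.15 and 9.28 at week 3. The groups overlapped throughout, and the healthy arrays alone spread over much of the whole range. At week 3 relative to healthy lung, the log2 fold change was 0.36 (SE 0.25, 95% confidence interval -0.23 to 0.95, adjusted p = 0.473). The 3 other Tlr4 probe sets gave log2 fold changes of 0.27 (1418163_at, interval 0.02 to 0.51, adjusted p = 0.212), -0.04 (1430695_at) and -0.36 (1442827_at). For 1418163_at, all week 3 arrays were above all healthy arrays. The group means of 1430695_at were only 6.22 to 6.34, where the lowest value on the arrays was 5.27, so its sign says little. The probe sets did not share a direction, and none passed the test.

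Tlr2, which senses lipoproteins and some of the same matrix ligands, averaged 9.22 ± 0.31 in healthy lung, 9.06 ± 0.07 at week 1, 9.04 ± 0.23 at week 2 and 9.17 ± 0.16 at week 3. Its log2 fold change at week 3 relative to healthy lung was -0.05 (interval -0.46 to 0.36). No gene of the Toll-like receptor list passed in week 3 against healthy lung (0 of 11 measured), and the log2 fold changes ran between -0.44 for Tlr5, the flagellin receptor, and 0.47 for Tlr13, a receptor for bacterial ribosomal RNA in mice. The list's median was 0.14. With 2.38% of all genes rising and 2.63% falling, a count of 0 is no result about so short a list.

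Cd14 had log2 signals of 9.88, 9.79 and 9.73 at week 3, against 9.71, 9.58 and 9.45 in healthy lung. The 3 week 3 values were higher than the healthy ones by a narrow gap, and the log2 fold change of 0.22 did not pass (SE 0.11, interval -0.04 to 0.49, adjusted p = 0.324). At week 1, Cd14 had 9.16, 9.26 and 9.73, and the log2 fold change of week 3 against week 1 was 0.42 (SE 0.17, adjusted p = 0.348). Ly96, whose product MD-2 holds lipid ligands of TLR4, had 8.53, 8.11 and 7.84 at week 3 against 8.45, 8.50 and 8.04 in healthy lung. These values overlapped, and the log2 fold change was -0.17 (interval -0.66 to 0.32). Together with the other accessory and chaperone proteins of TLR4, 0 of 9 measured genes passed in week 3 against healthy lung (median 0.16), among them Lbp (0.20, adjusted p = 0.327), the serum protein that loads CD14. Beside shares of 2.38% for rises and 2.63% for falls over all genes, this count of 0 is no result about the list.

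Myd88, the adaptor, had the narrowest range of the 8 genes over the 12 arrays (10.35 to 10.70). It had log2 signals of 10.63, 10.58 and 10.63 at week 3 against 10.56, 10.70 and 10.57 in healthy lung, and the interval of the difference was -0.23 to 0.24. The 2 groups overlapped. The adaptors and proximal kinases of the pathway had 0 of 14 measured genes past the threshold in week 3 against healthy lung (median 0.01), and the proteins that restrain it had 0 of 11 (median 0.02). Both counts stand beside 2.38% of all genes rising and 2.63% falling and are no result about these lists.

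**Figure D2:**
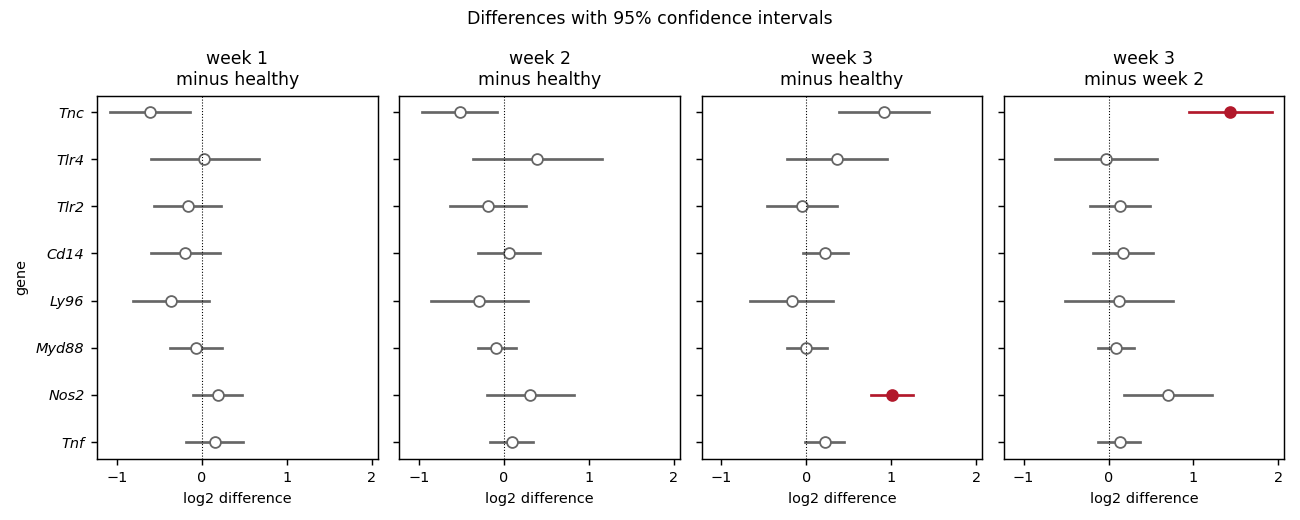
Log2 difference of each gene (x axis) with its 95% confidence interval, for week 1, week 2 and week 3 minus healthy lung and for week 3 minus week 2. Filled red points passed the test. Nos2 is the 1 filled point at week 3 minus healthy and Tnc the 1 at week 3 minus week 2. The 3 differences from healthy lung share the healthy arrays.

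Nos2 had log2 signals of 7.69, 7.69 and 7.84 in healthy lung, 8.00, 7.99 and 7.79 at week 1, 7.86, 8.57 and 7.72 at week 2, and 8.80, 8.78 and 8.67 at week 3. Week 3 did not overlap any other group, and the highest week 2 array, at 8.57, lay next below it. Nos2 rose at week 3 relative to healthy lung (8.75 ± 0.07 at week 3 and 7.74 ± 0.09 in healthy lung, SD, n = 3 each), by 1.01 on the log2 scale (SE 0.11, adjusted p = 0.00511). This call held without each of the 6 arrays in turn (adjusted p between 0.0165 and 0.0279) and under all 7 other settings of the test. Some of these settings could hardly change it. All arrays already had a median of 8.13, so normalizing again (adjusted p = 0.00511) or centring (0.00509) altered little. Nos2 has 1 probe set, so the mean of probe sets used the same signals. Nos2 was also above week 1 (0.82, SE 0.12, adjusted p = 0.0371), a call that was lost without each array in turn (0.0784 to 0.128) and with a trended and robust variance (0.0575). Against week 2 the log2 fold change was 0.70 (SE 0.22, adjusted p = 0.176).

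Of 17 genes of nitric oxide synthesis or response, Nos2 rose and 2 fell at week 3 relative to healthy lung, and the median was -0.04. That 0 of the 16 others rose stands beside a share of 2.38% over all genes and is no result about them. Gucy1a1 and Gucy1b1 encode the subunits of soluble guanylate cyclase, the enzyme that nitric oxide activates in smooth muscle and pericytes. Gucy1a1 had 10.19, 9.92 and 9.97 at week 3 against 11.49, 11.39 and 11.15 in healthy lung, and fell by 1.31 (SE 0.13, adjusted p = 0.00487). Gucy1b1 had 7.63, 7.78 and 7.87 at week 3 against 9.32, 9.17 and 8.86 in healthy lung, and fell by 1.36 (SE 0.15, adjusted p = 0.00566). Both calls held without each array in turn. Over the same comparison 3 of 11 mural cell markers fell, and their part in the Gucy1a1 and Gucy1b1 values was not tested. Nos3, the endothelial nitric oxide synthase, differed by 0.40 (SE 0.19, adjusted p = 0.289), and Nos1 by 0.01. Arg1, which competes with nitric oxide synthase for arginine, differed by 0.28 (adjusted p = 0.416).

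Tnf had log2 signals of 7.45, 7.54 and 7.43 at week 3, against 7.18, 7.31 and 7.28 in healthy lung. The week 3 arrays were higher by a small gap, and the log2 fold change of 0.22 did not pass (SE 0.10, interval -0.02 to 0.45, adjusted p = 0.281). None of the 13 measured genes for TNF, its receptors and their adaptors passed in week 3 against healthy lung (median 0.12), including Tnfrsf1a, the main TNF receptor (0.40, adjusted p = 0.114). As 2.38% of all genes rose and 2.63% fell, this is no result about the list.

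Among 20 cytokines and enzymes that TLR4 is known to induce in macrophages, 2 rose at week 3 relative to healthy lung, Acod1 and Ccl5. Over all genes, 2.38% rose. Acod1, which makes itaconate, had 7.97, 8.18 and 7.61 at week 3 against 7.23, 6.71 and 6.99 in healthy lung (log2 fold change 0.95, SE 0.19, adjusted p = 0.0422). Ccl5, a chemokine for monocytes and T cells, had 8.43, 8.26 and 8.46 at week 3 against 7.74, 7.60 and 7.07 in healthy lung (0.91, SE 0.19, adjusted p = 0.0427). Relative to week 2, Ccl3 (1.16, SE 0.20, adjusted p = 0.0416) and Ccl5 (0.76, SE 0.13, adjusted p = 0.0388) rose. Relative to week 1, Ccl5 (1.18, SE 0.12, adjusted p = 0.0137) and Cxcl2 (1.15, SE 0.15, adjusted p = 0.0256) rose and 0 of 20 fell. In that comparison 15 of 20 log2 fold changes were positive, with a median of 0.24 against -0.02 over all genes. Shares over all genes were 0.649% for rises and 0.192% for falls, so the count of 0 falls is no result about the list. Il6 (-0.23), Il1b (0.08), Cxcl1 (-0.12) and Ptgs2 (-0.31), all common readouts of TLR4 in macrophages, did not pass at week 3 relative to healthy lung. Neither did Ccl3 (1.02, adjusted p = 0.0952), with all week 3 arrays higher, or Saa3 (0.74, adjusted p = 0.18), and Il10 (-0.84, adjusted p = 0.0537) and Il23a (-0.81, adjusted p = 0.066) missed the threshold with all week 3 arrays lower. The list's median against healthy lung was -0.03. The Ccl5 calls against healthy lung and against week 2 were lost without each array in turn (adjusted p up to 0.125). Acod1 held only without week 3 replicate 3 (0.0477) and Ccl3 only without week 3 replicate 1 (0.0317). For the calls against week 1, values with an array left out are not given here.

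Tenascin C is 1 of several tissue molecules that can act on TLR4 or TLR2, and the 13 others measured here divided. At week 3 relative to healthy lung 1 rose and 4 fell. Vcan (versican), a matrix proteoglycan and TLR2 ligand, rose by 0.73 on the log2 scale (SE 0.13, adjusted p = 0.027). Sftpa1, a surfactant protein (-1.34, SE 0.24, adjusted p = 0.029), the inducible heat shock proteins Hspa1a (-1.18, adjusted p = 0.0143) and Hspa1b (-1.16, adjusted p = 0.0059), and the proteoglycan decorin (Dcn, -1.12, adjusted p = 0.00546) fell. Dcn is also a fibroblast marker and Sftpa1 an alveolar epithelial one, and 4 of the 10 other fibroblast markers and 5 of the 10 other alveolar markers fell over the same comparison. Relative to week 2, Fn1, the gene of fibronectin, had 12.27, 11.89 and 12.30 at week 3 against 10.61, 10.95 and 10.68 at week 2 (log2 fold change 1.41, SE 0.15, adjusted p = 0.0176). Vcan rose too (1.03, SE 0.16, adjusted p = 0.0333), and Hspa1a (-1.06) and Hspa1b (-0.98) fell. Relative to week 1, Fn1 (1.19, adjusted p = 0.0236) and S100a8, also a neutrophil marker (1.26, adjusted p = 0.0393), rose. That 0 of 13 fell stands beside a share of 0.192% over all genes and is no result about the list. Values of these week 1 calls with an array left out are not given here. The calls of Hspa1b and Dcn against healthy lung held without each array in turn. By the mean of a gene's probe sets, Dcn gave -0.63 and passed, whereas Hspa1b (-0.56 against healthy lung, adjusted p = 0.0998, and -0.45 against week 2) and Vcan (0.43 against healthy lung, adjusted p = 0.18, and 0.57 against week 2) did not pass. With all groups in one fit, Sftpa1 (adjusted p = 0.106) and Vcan (0.0831) did not pass against healthy lung. Both Vcan calls were lost without each array in turn (adjusted p up to 0.106), as was that of Hspa1b against week 2 (up to 0.0982). The Fn1 call against week 2 was lost without week 2 replicate 1 or 3 or week 3 replicate 1 or 3 (up to 0.0733). Sftpa1 held only without week 3 replicate 1 (up to 0.0991). Hspa1a was lost against healthy lung without healthy replicate 1 or 2 or week 3 replicate 3 (up to 0.0595), and held against week 2 only without week 3 replicate 2 (up to 0.0739). Hspa1a and Hspa1b are near-identical genes whose probe sets cannot be fully told apart.

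**Figure D3:**
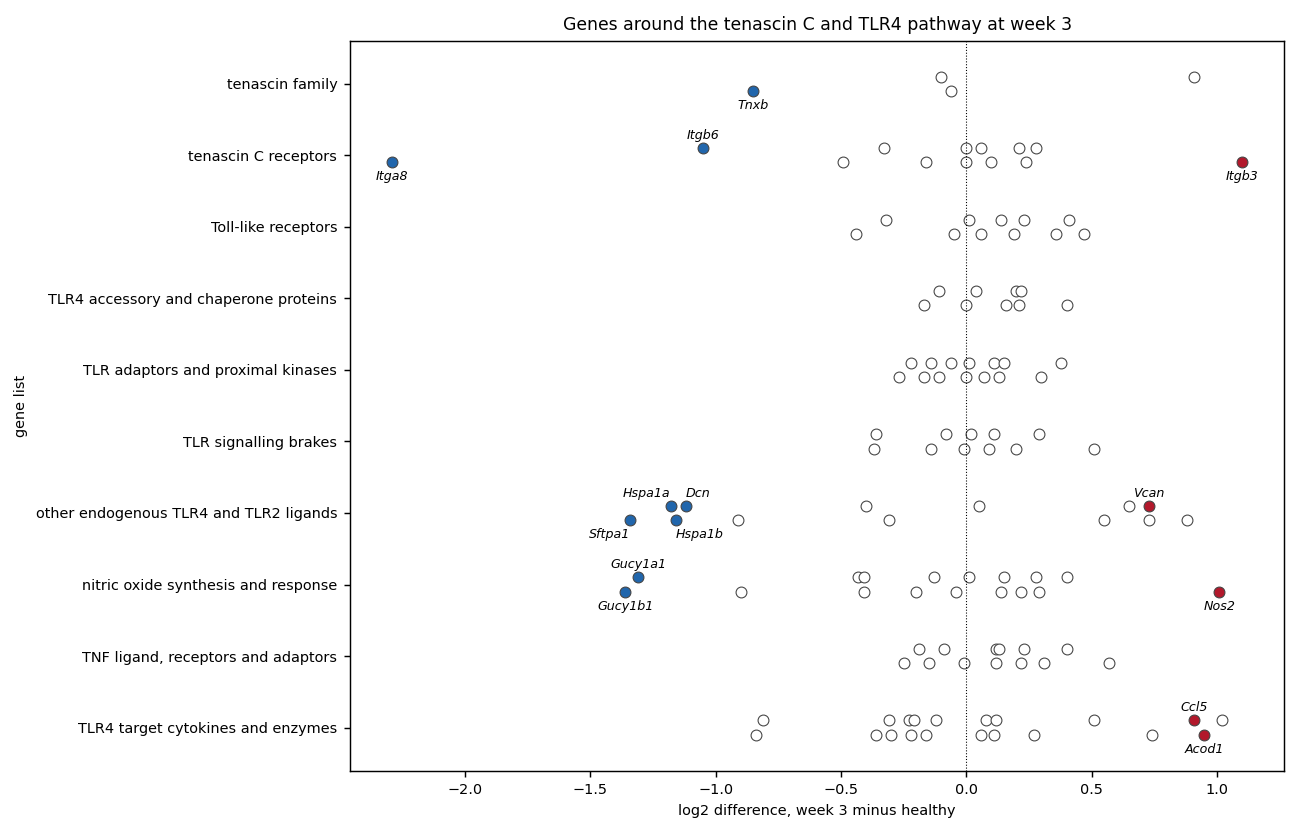
Log2 difference of week 3 minus healthy lung (x axis) for every measured gene of the 10 pathway lists (rows). Filled points passed the test, red for a rise and blue for a fall, and open points did not. The Toll-like receptor, accessory protein, adaptor, brake and TNF rows hold no filled point. Over all genes 2.38% rose and 2.63% fell, so an empty row is no result about its list.

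The 5 genes whose pattern over the 12 arrays was most like that of Tnc were Lamb1 (Pearson r = 0.959), Prnp (0.955), Ms4a6d (0.951), Lcp1 (0.946) and Cd69 (0.942). These correlations are descriptions and were picked as the highest of all genes read. Lamb1, the laminin β1 chain of basement membrane, had log2 signals of 11.48, 11.04 and 10.90 at week 3, against 9.48, 9.58 and 9.24 at week 2 (log2 fold change 1.71, SE 0.18, adjusted p = 0.0165). Prnp, the prion protein gene, rose by 1.49 on the log2 scale in week 3 against week 2 (SE 0.16, adjusted p = 0.0176). Ms4a6d, a membrane protein of macrophages (1.17, adjusted p = 0.028), and Cd69, an early activation marker of leukocytes (0.76, adjusted p = 0.0451), rose likewise, and Lcp1, the actin bundler of leukocytes, did not pass (0.38, adjusted p = 0.112). By the mean of its probe sets Ms4a6d gave 0.64 and did not pass (adjusted p = 0.0639). Cd69 averaged only 5.92 at week 2 and 6.68 at week 3, and Ms4a6d averaged 6.98 at week 2. These means lie below the median of 7.62 of the genes not expected in lung. The height of these signals therefore does not show that transcript was present. The healthy mean lay between those of week 2 and week 3 for Lamb1, at 10.32, as it did for Tnc. The Lamb1 call was lost without week 2 replicate 1 or 3 (adjusted p up to 0.0719), that of Prnp also without week 3 replicate 1 or 3 (up to 0.0739), and those of Ms4a6d (up to 0.0934) and Cd69 (up to 0.119) without each array in turn. Among the 7 other genes of the axis, Cd14 (r = 0.691) and Nos2 (r = 0.681) were the most like Tnc, and Tnf (0.10) and Tlr4 (0.183) the least.

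**Figure D4:**
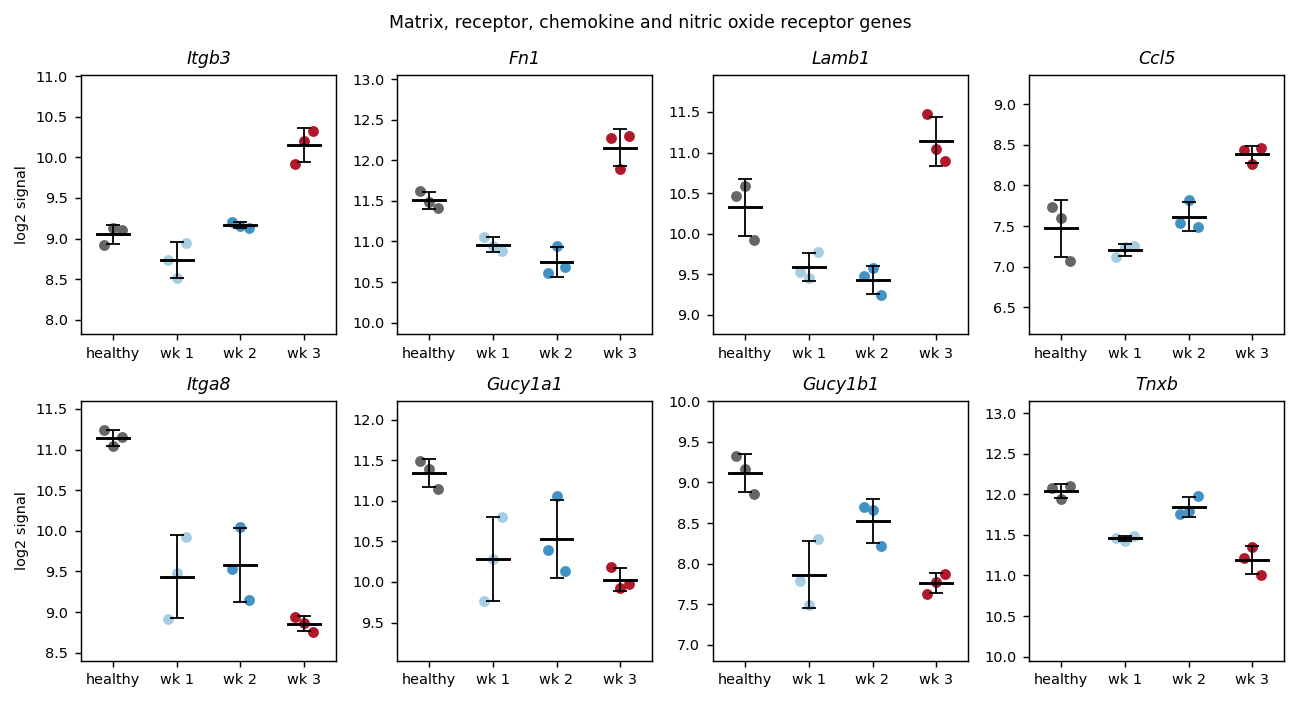
Log2 signal (y axis) of 8 genes named beside Tnc and Nos2, in healthy lung and at weeks 1, 2 and 3. Points are arrays, bars are means and whiskers SD (n = 3). Itgb3, Fn1, Lamb1 and Ccl5 have their highest values at week 3, and Itga8, Gucy1a1, Gucy1b1 and Tnxb have their highest in healthy lung.

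Marker lists of other cells were read on the same arrays. The 18 measured macrophage and monocyte markers averaged 8.47 to 8.56 on the healthy arrays, 8.15 to 8.31 at week 1, 8.00 to 8.40 at week 2 and 8.49 to 8.75 at week 3. At week 3 relative to healthy lung, C1qa (1.48) and C1qb (1.40) rose and Cd68 fell by 1.18, whereas 15 of 18 did not pass, Csf1r and Adgre1 among them. The 10 pan-leukocyte markers averaged 8.81 to 9.29 in healthy lung, 8.36 to 8.90 at week 2 and 9.29 to 9.35 at week 3, and 2 of 10 rose relative to week 2. The 11 fibroblast markers averaged 11.15 to 11.26 in healthy lung, 10.03 to 10.32 at week 2 and 10.46 to 10.64 at week 3. Between weeks 3 and 2, 2 of 11 rose (Col1a1, 1.29, and Mfap5, 1.30), and between week 3 and healthy lung 5 of 11 fell. The 11 mural markers averaged 9.49 to 9.64 in healthy lung, 8.66 to 8.84 at week 2 and 8.94 to 9.09 at week 3, and 6 of 11 alveolar epithelial markers fell at week 3 relative to healthy lung. Some fibroblast, mural and epithelial markers fell with Itga8, Gucy1a1, Gucy1b1, Tnxb, Dcn, Sftpa1 and Itgb6 relative to healthy lung. The 9 measured neutrophil markers averaged 7.32 to 7.82 in healthy lung, 7.38 to 7.58 at week 1, 7.47 to 7.83 at week 2 and 7.86 to 7.98 at week 3, so that week 3 did not overlap the other groups. At week 3 relative to healthy lung 0 of 9 passed, and the median was 0.29 (S100a8, 0.88, adjusted p = 0.0666). C1qa, C1qb and 1 of 10 pan-leukocyte markers (Fcer1g, 0.60) rose with Nos2 over that comparison. Relative to week 1, Nos2 rose together with Laptm5, Col1a1 and S100a8. Their part in the Nos2, Itga8, Dcn, Sftpa1 and Itgb6 values was not tested.

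**Figure D5:**
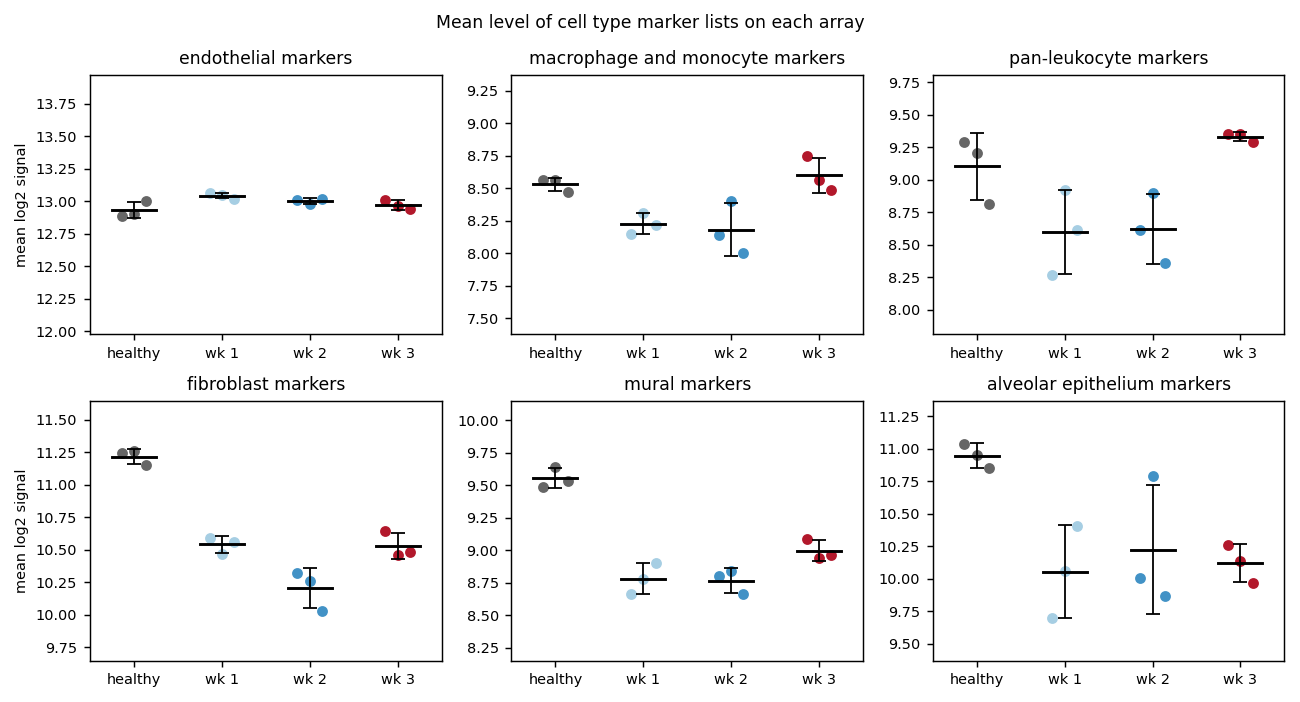
Mean log2 signal of each cell type marker list (y axis) on each array in healthy lung and at weeks 1, 2 and 3. Points are arrays, bars are means and whiskers SD (n = 3). Endothelial markers stay near 13, fibroblast and mural markers are lower at all weeks than in healthy lung, and pan-leukocyte markers are higher at week 3 than at weeks 1 and 2.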

How the data were processed

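RNA of sorted ECs (4 groups of 3) was measured on 12 Affymetrix mouse genome arrays. The authors normalized the arrays with robust multiarray average in Chipster and deposited 1 log2 value for each probe set on each array, which was used unchanged. Of 45101 probe sets, 64 array controls were set aside, and 45037 were tested. A gene was read from its single-symbol probe set of highest mean (34945 probe sets, 18193 genes).

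Groups were compared in pairs with limma 3.58.1 (lmFit and eBayes in R 4.3.3), the kind of test the methods name, with Benjamini–Hochberg adjustment over 45037 probe sets and a threshold of 0.05. Samples are labelled biological replicates, and whether mice were pooled is not given in the sources used here. Array number limits the precision. Deviations of same-numbered arrays correlated by -0.104 to 0.065, so the numbers do not pair arrays. Summaries and plots used Python 3.11.15, pandas 2.3.3 and matplotlib 3.10.9.

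The genes and lists were chosen with earlier results of these data known. Named from each pathway list were up to 3 genes of largest change past the threshold in week 3 against healthy and against week 2, and the 5 genes most correlated with Tnc. Further list genes and markers were named after their values were seen. 13 listed genes had no single-symbol probe set.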

Additional observations from a re-analysis of the deposited data

Results flagged for a closer look

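Tnc differed from healthy lung at week 3 otherwise than at week 2 and at week 1. The week 3 difference was higher than the week 2 difference by 1.43 on the log2 scale (adjusted p = 0.0277, limma), and higher than the week 1 difference by 1.52 (adjusted p = 0.036). The test of the difference is the direct comparison of the weeks, since the healthy arrays cancel. All 3 week 3 arrays were above those of healthy lung. None of the differences of Tnc from healthy lung passed itself (adjusted p = 0.0748 at week 3, 0.39 at week 2 and 0.393 at week 1, limma). The other Tnc probe set, 1456344_at, gave 0.19 for week 3 against week 2 and 0.24 against week 1, and neither passed.

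Nos2 differed from healthy lung more at week 3 than at week 1, by 0.82 on the log2 scale (adjusted p = 0.0371, limma). All 3 week 3 arrays were above all week 1 arrays. Both Tnc calls and this one were lost when any 1 array was left out, except that Tnc against week 2 kept its call without week 3 replicate 2.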

How the results depend on the processing

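The 8 genes carried 48 differences, of which 4 were past the threshold, and none of these 4 turned its direction under any alternative tried. With all groups in one fit or with a filter on low values, 2 genes passed in week 3 against healthy lung (Tnc and Nos2) in place of 1, the lowest adjusted p of Tnc being 0.0305. With the replicate block, 0 genes passed in week 3 against week 2 and 0 in week 3 against week 1 (Tnc 0.104 and 0.12, Nos2 0.117), and Nos2 against healthy lung kept its call. The samples share only a number, so this block is no pairing. With the mean of probe sets, 0 passed in week 3 against week 2. With trended and robust variance, 1 passed in week 3 against week 1 (Tnc). Leaving out 1 array at a time gave 0 to 1 genes in week 3 against week 2 and 0 in week 3 against week 1. Tnf, Acod1, Ccl3, Itgb6, Cd69 and Ms4a6d lie below the filter on low values and have no value there. Over all genes, 912 passed in week 3 against healthy lung, 330 to 503 with 1 array left out and 378 to 1426 under the other settings. In week 3 against week 2, 382 passed, against 0 to 137 and 0 to 776. Of 642 alternatives, 41 turned the sign of a value that had not passed. For Tlr4 these were week 1 against healthy (-0.0033 by the mean of probe sets, -0.11 by 1430695_at, -0.18 by 1442827_at), week 2 against healthy (-0.12 by 1430695_at), week 3 against healthy (-0.04 by 1430695_at, -0.36 by 1442827_at), week 3 against week 2 (0.05 by 1418163_at, 0.08 by 1430695_at), week 3 against week 1 (-0.18 by 1442827_at) and week 2 against week 1 (-0.02 by 1418163_at, -0.01 by 1430695_at). With 1 array left out, the sign turned within these ranges: Tlr4 week 1 against healthy (-0.18 to 0.31), Tlr2 week 1 against healthy (-0.26 to 0.02), Myd88 week 1 against healthy (-0.12 to 0.03), Cd14 week 2 against healthy (-0.05 to 0.20), Tlr2 week 3 against healthy (-0.15 to 0.13), Myd88 week 3 against healthy (-0.02 to 0.05), Tlr4 week 3 against week 2 (-0.18 to 0.26), Ly96 week 3 against week 2 (-0.13 to 0.32), Myd88 week 3 against week 1 (-0.02 to 0.12), Tnf week 3 against week 1 (-0.05 to 0.18), Tnc week 2 against week 1 (-0.05 to 0.21), Tlr2 week 2 against week 1 (-0.11 to 0.11), Ly96 week 2 against week 1 (-0.13 to 0.32), Myd88 week 2 against week 1 (-0.11 to 0.03), Nos2 week 2 against week 1 (-0.14 to 0.29), Tnf week 2 against week 1 (-0.17 to 0.05). The causes were not tested. Of the calls of named list genes in week 3 against healthy lung and against week 2, 63 of 150 held with 1 array left out and 147 of 170 under the other settings, none with a changed sign. The other settings include normalizing again and centring, which could change little because all arrays already had a median of 8.13.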
